A study of Mus musculus with 9 samples.

Results

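The miRNAs of the mouse families miR-297, miR-466, miR-467 and miR-669 were measured in whole mouse fetal lungs (E18.5) with the nCounter miRNA panel of NanoString, an assay that counts reporter-labelled molecules without amplification. Every mouse probe with one of these 4 stems in its name, in any letter, arm or copy, was taken, which gave 33 of the 566 mouse miRNA probes. The samples were total lungs of C57BL/6 embryos, 5 wild type (samples 1 to 5) and 4 homozygous for a mutated 3′ untranslated region of Bim, Bim3'UTRmut/mut (samples 6 to 9). No treatment was given to either group. Bim (Bcl2l11) is a pro-apoptotic protein, and its own transcript and allele are not read by a miRNA panel. Nothing in the labels says which litters the embryos came from, so p-values measure only the spread between these samples.

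Most genes of these families lie in an intron of Sfmbt2, a Polycomb-group gene that is imprinted in the mouse and read from the paternal copy in early embryos and extraembryonic tissue. The cluster is an array of many near-identical hairpins found in the mouse and rat. A miRNA guides its protein complex to target mRNAs mainly through the seed, the bases near its 5′ end, so members with different seeds can have different targets. Many mature members hold runs of alternating purine and pyrimidine bases, and such simple repeats also occur widely in other transcripts.

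In RefSeq's annotation of GRCm38.p6, 72 miRNA genes lie inside Sfmbt2 on chromosome 2. Of the 39 miRNA names carried by the 33 probes, 37 matched a gene there. By these matches 25 probes had all their matched loci inside Sfmbt2, 3 probes had loci both inside and elsewhere, and 5 probes had loci elsewhere only. The last 5 were miR-466i, miR-466j, miR-466k, miR-467f and miR-467g, so the name of the cluster holds for most of the probes and not for all. Copy number differed as well, with 12 loci for miR-669a, 10 for miR-467a and 1 for miR-466g. A count of miR-669a or miR-467a therefore cannot be assigned to a single gene, and probes for near-identical members may share molecules.

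The mature sequences show what the probes have to tell apart. In the RefSeq sequence table used here 6 of the 39 names matched, and these sequences are printed 5′ to 3′ with the seed, bases 2 to 8, in capitals. None of these 6 names had a matched locus inside Sfmbt2, so the sequences do not describe the Sfmbt2 array itself. miR-467h is 1 of the names on a shared probe, and the others belong to the probes with loci outside Sfmbt2 only.
miR-466i-3p, chr13:17747552-17747573, plus strand: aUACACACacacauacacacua
miR-466j, chr10:60960802-60960824, plus strand: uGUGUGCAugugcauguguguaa
miR-466k, chr3:85467396-85467418, plus strand: uGUGUGUGuacauguacauguga
miR-467f, chr11:69635419-69635439, minus strand: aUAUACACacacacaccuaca
miR-467g, chr5:34732872-34732892, minus strand: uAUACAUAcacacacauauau
miR-467h, chr9:115381898-115381919, plus strand: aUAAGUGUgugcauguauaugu
The build is GRCm38.p6. The 6 seeds were all different, so no pair of these miRNAs could be grouped by seed. Each of the 6 held GUGUGU or ACACAC, which are the reverse complement of each other, at some position of the mature strand. Among the 1679 mature mouse miRNAs of this RefSeq table, 28 held either motif (1.67%), these 6 included. Since only 6 of the 39 member names matched the table, this share need not hold for all mouse miRNAs.

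The 12 lanes of the run, 1 per sample and a repeat lane for samples 1, 5 and 6, gave 8 negative control probes each, and a probe was called above background where its count exceeded their mean plus 2 SD in the same lane. Mouse miRNA probes summed to between 206964 and 289227 counts in the first lanes of the 9 samples, but the background differed more. The negative control mean was 28.1, 64.3, 37.5, 31.5 and 79.1 counts in wild types 1 to 5. In mutants 6 to 9 it was 66.8, 33.6, 34.6 and 39.5. Samples 2, 5 and 6 thus had the highest background, and their thresholds of 147, 198 and 152 counts lay above those of the other 6 samples, which ran from 56.3 to 80.5. Wild type 3 and mutant 8 stood apart in their tissue markers. The summed count of 7 heart and skeletal muscle miRNAs was 22869 and 30047 in them, against 378 to 636 in the other 7 samples, and 5 epithelial miRNAs of the miR-200 group summed to 548 and 1033 against 6490 to 8695. Sample 5 is labelled wild type, while the comment in the lane table reads as mutant for both of its lanes. Labels were followed. Detection in at least 4 samples is also given without wild type 3 and mutant 8. Genotype fold changes are also given without them, and with the other assignment of sample 5. The share of counts by genotype and the means within lanes of like background are given by label only.

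The families were weakly represented in the fetal lung. Only 6 of the 33 probes (18.2%) were above background in at least 4 samples, against 33.4% of all mouse miRNA probes. No member passed in all 9 samples (0 of 33), which 19.8% of all mouse probes did. In no sample at all did 26 of the 33 (78.8%) pass, against 52.7% of all mouse probes. Of the 33 probes for miRNAs of viruses, read here as further background probes, 0 passed in at least 4 samples and 25 passed in none. The list of probes from the other large imprinted miRNA cluster, Dlk1-Dio3, had 27 of 60 (45.0%) above background in at least 4 samples and 19 in all 9. By family, 2 of 12 miR-466 probes, 2 of 8 miR-467 probes, 2 of 9 miR-669 probes and 0 of 4 miR-297 probes passed in at least 4 samples. In a whole organ, fewer cells with a miRNA and fewer copies per cell cannot be told apart, and a count under the threshold says only that the miRNA was not detectable over the background of that lane.

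The number of members above background differed between lanes. It was 6, 2, 5, 6 and 2 of 33 in wild types 1 to 5, and 0, 6, 7 and 2 in mutants 6 to 9. Of all mouse probes 36.7%, 24.2%, 33.6%, 35.0% and 22.8% passed in the wild types, and 24.9%, 34.6%, 41.7% and 30.4% in the mutants, lowest in the same samples 2, 5 and 6. The samples with the highest background, 2, 5 and 6, had 2, 2 and 0, and the mutant with the next highest threshold, mutant 9, also had 2. The other 5 samples had 5 to 7. The viral probes, read in the same way, gave 1, 0, 5, 1 and 0 in the wild types and 0, 0, 4 and 0 in the mutants. The 5 and 4 viral probes above background were in wild type 3 and mutant 8, so a member that passed in those samples stood beside viral probes that also passed. Counted instead against the highest viral probe of the lane, 6 members passed in at least 4 samples, as did 32.9% of all mouse probes. At the negative control mean plus 3 SD, 2 of the 33 members passed in at least 4 samples, the miR-466a-3p/miR-466b-3-3p probe and miR-466g, against 29.2% of all mouse probes. In all 9 samples, 3 members passed at the mean plus 1 SD (26.3% of all mouse probes), 1 over the highest negative control (22.1%) and 1 with the lower-background lane of each repeated sample (22.1%).

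**Figure D1:**
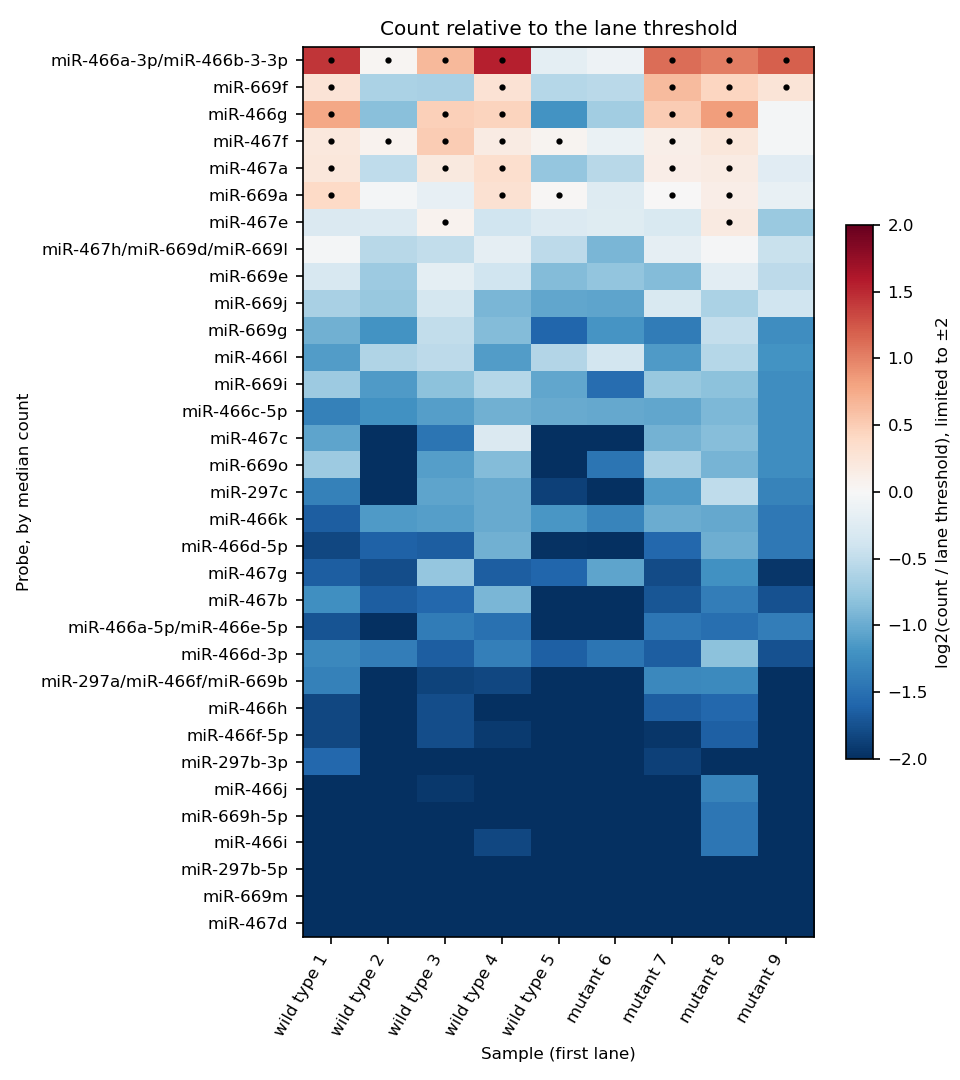
Log2 of the count over the lane threshold (colour, limited to 2 in each direction) for the 33 probes (rows, by median count) in the 9 samples (columns, first lanes). Dots mark counts above the threshold. They fall in the upper 7 rows and are sparse in wild type 2, wild type 5 and mutant 9 and absent in mutant 6.

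Of the 6 probes that passed in at least 4 samples, the one shared by miR-466a-3p with miR-466b-3-3p gave the highest median count. It read 152, 151, 108, 165 and 173 counts in wild types 1 to 5, and 141, 142, 133 and 184 in mutants 6 to 9. It passed in 7 samples, all but wild type 5 and mutant 6, where its count was close to that elsewhere and the threshold was higher. The groups overlapped over most of their range. miR-466b-3 has 1 locus, inside Sfmbt2, and miR-466a-3p was not matched to a locus.

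miR-466g, also from 1 locus in Sfmbt2, was the most even of the 6. It read 96, 82, 96, 77 and 86 counts in wild types 1 to 5 and 94, 93, 116 and 78 in mutants 6 to 9. It passed in 5 samples, and failed in wild types 2 and 5 and mutants 6 and 9. Its counts in the high-background samples 2, 5 and 6 lay inside the range of the other 6 samples.

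miR-669f, likewise from Sfmbt2 alone, read 68, 95, 44, 69 and 133 counts in the wild types. In the mutants it read 104, 102, 88 and 96. It passed in wild types 1 and 4 and in mutants 7, 8 and 9. The 4 mutants lay close together, inside the wild type range, whose lowest value was wild type 3 and whose highest was wild type 5.

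miR-467f, whose only RefSeq locus is on chromosome 11 and not in Sfmbt2, read 65, 154, 98, 63 and 206 counts in wild types 1 to 5. In mutants 6 to 9 it read 139, 71, 76 and 78. It passed in 7 samples, all but mutants 6 and 9, including the high-background wild types 2 and 5. Its counts in samples 2, 5 and 6 were the 3 highest of the 9.

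miR-467a and miR-669a are the members with the most gene copies. miR-467a read 66, 103, 79, 71 and 116 counts in the wild types and 103, 72, 73 and 69 in the mutants. miR-669a read 74, 142, 61, 70 and 200 counts in the wild types and 127, 66, 71 and 73 in the mutants. Each passed in 5 samples, and for both the counts of samples 2, 5 and 6 were above all others. miR-669a passed in wild type 5, where miR-467a did not.

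**Figure D2:**
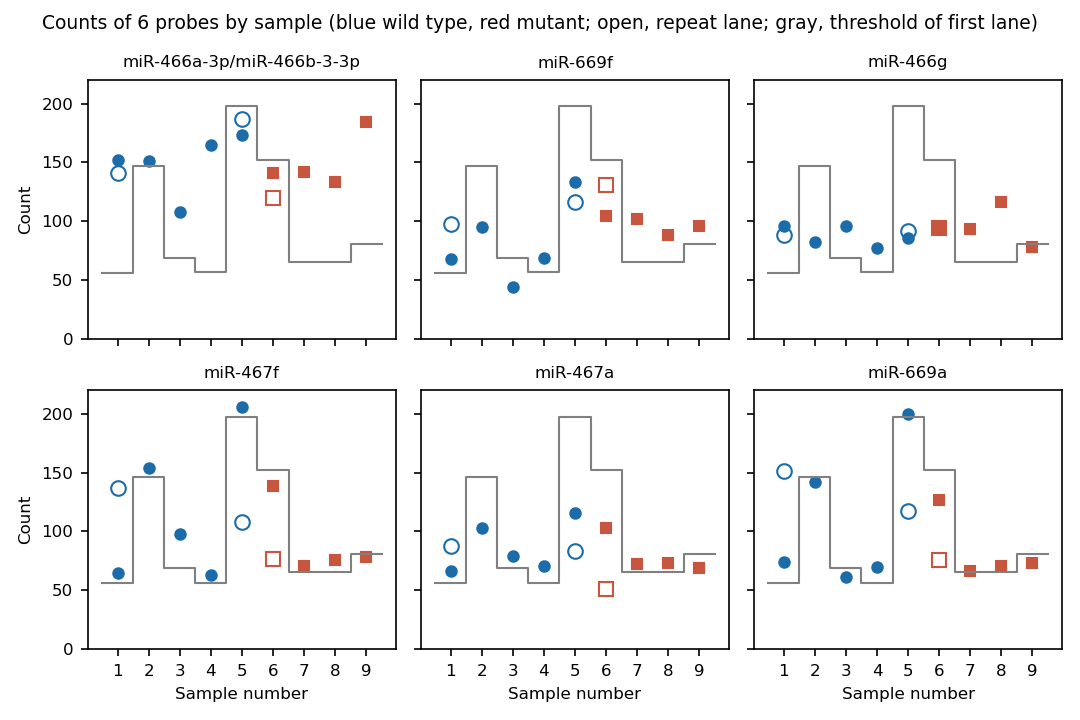
Raw counts (vertical axis) by sample number (horizontal axis) of the 6 probes above background in at least 4 samples; blue circles are wild type, red squares mutant, open symbols the repeat lanes, and the gray step line the threshold of the first lane. The miR-466a-3p/miR-466b-3-3p and miR-466g probes do not follow the steps of the threshold, whereas miR-467f and miR-669a are highest at samples 2, 5 and 6.

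The next probes by median count were at the limit of detection. miR-467e, with a median of 72 counts, read 46, 121, 72, 43 and 164 in the wild types and 129, 53, 74 and 48 in the mutants. It passed only in wild type 3 and mutant 8, the samples with muscle markers, although its highest counts were in samples 2, 5 and 6. The shared probe of miR-467h, miR-669d and miR-669l had a median of 59 counts (range 49 to 137), miR-669e of 56 (36 to 108), miR-669j of 54 (30 to 96) and miR-669g of 47 (25 to 67). None of these 4 probes passed in any sample. The other 22 probes had medians from 12 to 44 counts, also passed in no sample, and included all 4 miR-297 probes. The viral probes had a median of median counts of 49 and the 33 members one of 32.

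Summed over all 33 probes, the families made up 0.622% ± 0.153 of mouse miRNA counts (SD, n = 9), from 0.413% in wild type 1 (95% Wilson interval 0.390 to 0.437) to 0.875% in wild type 5 (0.842 to 0.910). The intervals cover counting error only. The share also differed between lanes of the same RNA. In the higher- and lower-background lanes it was 0.708% and 0.413% for wild type 1 and 0.875% and 0.520% for wild type 5. For mutant 6 it was 0.804% and 0.538%. With the lower-background lane of each repeated sample, the share over the 9 samples was 0.553% ± 0.0902. The wild type mean was 0.635% ± 0.177 (n = 5) and the mutant mean 0.606% ± 0.143 (n = 4), a gap smaller than either spread. Sample 5, which had the highest share, is counted as wild type here. With each lane's mean negative control count taken from every mouse probe, and values under 0 set to 0, the share was 0.201% ± 0.0357 and ran from 0.164% to 0.284%. The 6 probes above background in at least 4 samples alone held 0.242% ± 0.0392.

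The repeat lanes separate the lane from the sample, because each pair holds the same RNA. In each pair 1 lane had the higher background, the repeat lane for sample 1 and the first lane for samples 5 and 6. The negative control mean was 67.1 against 28.1 counts in wild type 1, 79.1 against 44.9 in wild type 5 and 66.8 against 29.4 in mutant 6. Summed mouse miRNA counts differed much less, with ratios of 1.03, 0.893 and 1.02. Positive controls had ratios of 1.06, 0.962 and 1.33.

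Members above background numbered 0 in the higher-background lane and 6 in the other for wild type 1, 2 and 5 for wild type 5, and 0 and 5 for mutant 6. Of all mouse probes 24.9% and 36.7%, 22.8% and 34.6%, and 24.9% and 35.9% passed in the same lanes, so the whole panel also had fewer calls in each higher-background lane. The 2 in the higher-background lane of wild type 5 were miR-467f and miR-669a, and both were also above background in its other lane. Of the 33 members, 30, 25 and 26 had the larger count in the higher-background lane of the 3 pairs, and 20 of 33 (60.6%) did in all pairs. The same held for 59.0% of all mouse probes and for 31 of the 33 viral probes, so the share of members was near that of the panel.

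**Figure D3:**
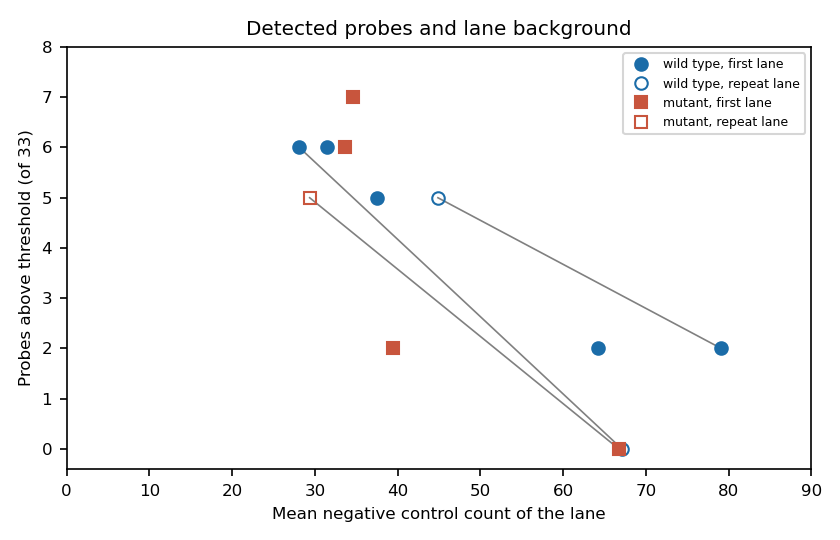
Number of the 33 probes above the lane threshold (vertical axis) against the mean negative control count of the lane (horizontal axis) for 12 lanes; filled symbols are first lanes, open symbols repeat lanes, and lines join lanes of the same RNA. Each line runs down towards the lane with higher background, from 6 to 0, 5 to 2 and 5 to 0 probes.

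The 6 probes differed in how far their count moved between lanes of the same RNA. Averaged over the 3 pairs, the log2 ratio of the higher-background to the lower-background lane was 0.64 for the median member and 0.57 for the median mouse probe. It was 0.89 for the median viral probe, 0.92 for the median negative control and -0.05 for the median of the 112 probes above background in all 9 samples. The mean ratios ran from 0.12 to 1.66 over the viral probes and from 0.10 to 1.69 over the negative controls. Over the 112 probes they ran from -0.49 to 0.82. These ranges overlap, so the mean ratio of a single probe does not place it in 1 of the lists. These are ratios of raw counts from 3 pairs and are described without a test.

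miR-466g and the miR-466a-3p/miR-466b-3-3p probe moved little. miR-466g had log2 ratios of -0.13, -0.10 and 0.00 in wild type 1, wild type 5 and mutant 6, with 88 against 96, 86 against 92 and 94 against 94 counts. The shared probe had ratios of -0.11, -0.11 and 0.23, from counts of 141 against 152, 173 against 187 and 141 against 120. These ratios were close to the median of the probes above background in all 9 samples, and the lowest mean ratio of a negative control was 0.10.

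miR-467f and miR-669a moved with the background. miR-467f had log2 ratios of 1.08, 0.93 and 0.85, from 137 against 65, 206 against 108 and 139 against 77 counts. miR-669a had ratios of 1.03, 0.77 and 0.74, from 151 against 74, 200 against 117 and 127 against 76 counts. Their mean ratios of 0.95 and 0.85 were near the medians of the viral probes and negative controls. The 70 other mouse probes with a median count in the range of the 6 members had a median mean ratio of 0.30. Their mean ratios ran from -0.50 to 1.71, a range that holds those of miR-467f and miR-669a.

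miR-467a and miR-669f were intermediate. miR-467a had a mean log2 ratio of 0.64, with 0.41, 0.48 and 1.01 in the 3 pairs. miR-669f had a mean of 0.13, but its pairs disagreed in sign, at 0.53, 0.20 and -0.33. Among the members that did not pass in 4 samples, miR-467e had a mean of 1.16. The highest mean of the 33 was that of miR-466k, 1.68, and the lowest that of the shared probe of miR-297a, miR-466f and miR-669b, -0.29, whose counts were between 16 and 40 over all lanes.

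**Figure D4:**
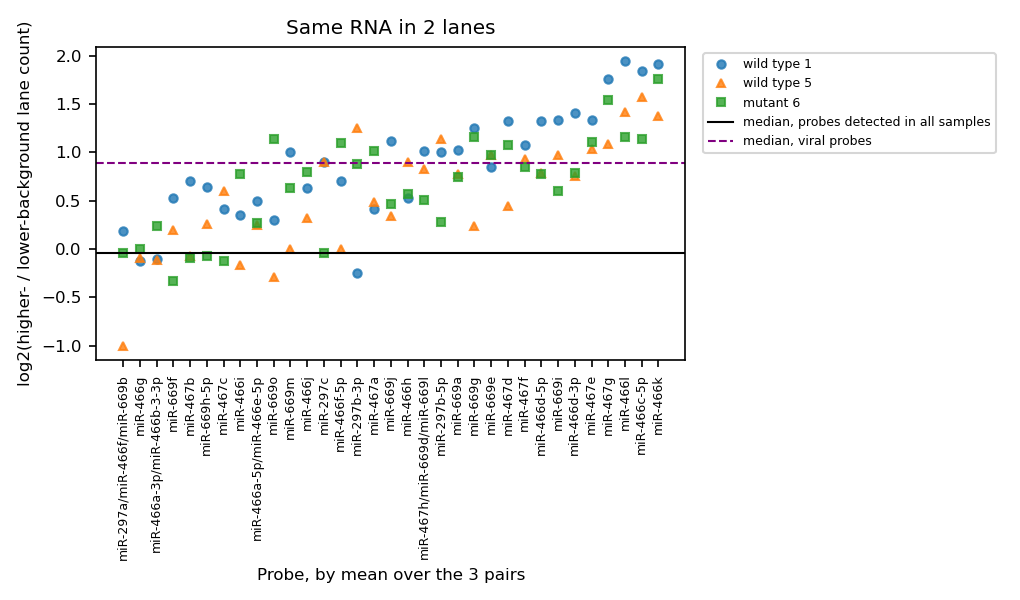
Log2 ratio of the count in the higher-background lane to that in the lower-background lane of the same RNA (vertical axis) for the 33 probes (horizontal axis, by mean), with 1 symbol per repeated sample. The solid line is the median of probes above background in all 9 samples (-0.05) and the dashed line that of viral probes (0.89); miR-466g and miR-466a-3p/miR-466b-3-3p lie near the solid line, and miR-466k, miR-466c-5p, miR-466l, miR-467g and miR-467e are above the dashed one in every pair.

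The same lanes mark the spread between samples. In 17 of the 33 probes (51.5%) the counts of samples 2, 5 and 6 were all above those of the other 6 samples, against 42.6% of all mouse probes and 69.7% of viral probes. Among the 6 probes above background in at least 4 samples these were miR-467a, miR-467f and miR-669a. For miR-669a the counts were 127 to 200 in samples 2, 5 and 6 and 61 to 74 in the others, and for miR-467f 139 to 206 and 63 to 98. Sample 5 and sample 6 fell to 117 and 76 counts of miR-669a in their lower-background lanes. Sample 2 was run in a single lane, so whether its higher counts belong to the lane was not tested.

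Probes outside these families that share the repeat motifs were read for comparison. The panel held 244 probes with a matched RefSeq sequence, and 6 of those that are not members were listed as holding GUGUGU or ACACAC. Sequences of a single excluded chromosome were left out of this list, and probes without a matched sequence could not be searched. The 6 may therefore not be all such probes of the panel. Of these 6, miR-1187, which holds GUGUGU and lies elsewhere in the genome than the miR-466 sequences printed above, is printed as an example.
miR-1187, chr5:82798964-82798986, minus strand of GRCm38.p6: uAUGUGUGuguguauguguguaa
It read 35 to 196 counts over the 9 samples and passed in 3. Its mean log2 ratio between the lanes of the same RNA was 1.64. Among the members printed above, the mean ratio was 1.68 for miR-466k, 0.58 for miR-466j and 0.32 for miR-466i. For miR-467g it was 1.47, for miR-467f 0.95 and for the shared probe of miR-467h 0.78. miR-574-5p and miR-539 had mean ratios of 0.75 and 0.82, miR-568 of 0.72, miR-362-3p of 0.35 and miR-574-3p of 0.21. Counts of samples 2, 5 and 6 were above all others for 5 of these 6 probes, all but miR-362-3p. miR-539, with 82 to 240 counts, passed in 9 samples and miR-574-3p, with 99 to 182, in 8. A motif in the letters of a miRNA is a description, and its part in the lane ratios was not tested.

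Wild type 3 and mutant 8 were next set beside the other 7 samples, value by value, since measured muscle markers and not a label set them apart. These samples had 5 and 7 members above background, and the other 7 had 0 to 6. For the miR-466a-3p/miR-466b-3-3p probe both raw counts, 108 and 133, were below the 141 to 184 of the others. Scaled to the mouse miRNA total (CPM), it read 522 and 529 against 519 to 782, inside the range of the others. Both raw counts lay below all others for this 1 of the 33 members (3.03%) and for 11.5% of all mouse probes, and both lay above for 0 members and 5.48%.

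miR-466g read 464 and 461 CPM against 293 to 368. Both CPM values lay above all others for this 1 of the 33 members and for 8.48% of all mouse probes, and both lay below for 0 members and 9.01%. As raw counts, 96 and 116 against 77 to 96, the ranges met. Total mouse miRNA counts were 206964 in wild type 3 and 251432 in mutant 8, and wild type 3, which had the lowest total of the 9 samples, tied with wild type 1 as a raw count and lay above it as CPM. miR-669f was lower in wild type 3, at 213 CPM, than in any other sample, while mutant 8 with 350 lay inside the range of 245 to 460. No other of the 6 probes had both samples outside the range of the other 7 on either scale.

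The markers of the remaining cell types bear on how these samples can be read. Endothelial miR-126-3p and miR-126-5p summed to 19638 and 18039 counts in wild type 3 and mutant 8 against 26174 to 35493. Liver miR-122 read 812 in each against 43 to 232, erythroid miRNAs 1312 and 1696 against 1214 to 2782, and leukocyte miRNAs 505 and 1467 against 592 to 980. All 7 muscle probes were above background in these samples, and 0 to 4 of them in the others. Each genotype holds 1 such sample, and the part of the tissue mixture in the members' values was not tested. Without these samples 4 members passed in at least 4 of the remaining 7, namely the miR-466a-3p/miR-466b-3-3p probe, miR-467f, miR-669a and miR-669f, as did 30.2% of all mouse probes.

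The genotypes were then compared, to ask whether members of these families differ in lungs with the Bim allele. In edgeR's quasi-likelihood fit 0 of the 6 tested members passed after adjustment over all 189 probes, against 0.0% of those probes, and the adjusted p (Benjamini-Hochberg) was 0.997 for each member. At an unadjusted p under 0.05 there were 5 of the 189 probes and 0 of the members, and DESeq2 gave 10 and 0. Of the members 2 read higher and 4 lower in the mutant, with a median log2 fold change of -0.13, beside a median of -0.03 and 40.2% higher over all 189 probes.

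miR-669f had a log2 fold change of 0.24 ± 0.19 (SE, 5 against 4 samples), mutant over wild type. Its mean log2 CPM values were 8.41 in the wild type and 8.68 in the mutant. miR-669a had a value of -0.39 ± 0.30 and miR-467f one of -0.40 ± 0.34, the largest in size of the 6. Leaving out 1 sample moved miR-669a to between -0.61 and -0.16 and miR-467f to between -0.64 and -0.22, in both cases from the fits without mutant 6 and without wild type 5. The mean lane ratios of these probes were the highest of the 6, and the wild type holds 2 of the 3 high-background samples. With the lower-background lane of each repeated sample, miR-669a stood at -0.36 ± 0.20 and miR-467f at -0.40 ± 0.27. With both lanes summed, miR-669a stood at -0.46 ± 0.19 and miR-467f at -0.47 ± 0.22. The part of lane background in these fold changes was not tested beyond these fits and the background-subtracted, covariate and within-background values given below. In the fit of the first lanes, miR-467a gave -0.20 ± 0.20, the miR-466a-3p/miR-466b-3-3p probe -0.05 ± 0.17 and miR-466g 0.03 ± 0.21.

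Within the 6 samples of lower background, 3 of each genotype, the mean log2 CPM values of miR-669a were 8.40 ± 0.18 in the wild type and 8.24 ± 0.16 in the mutant (SD, n = 3 each), a difference of -0.15. That of miR-467f was -0.17, from 8.51 ± 0.63 and 8.34 ± 0.15. The higher-background samples, 2 wild type and 1 mutant, gave differences of -0.33 and -0.28. miR-669f differed by 0.48 in the lower-background samples, from 8.20 ± 0.20 to 8.68 ± 0.10, and by -0.04 in the others. The other probes differed by -0.20 and -0.01 (miR-467a), -0.08 and -0.12 (miR-466a-3p/miR-466b-3-3p) and -0.11 and 0.23 (miR-466g) within the lower- and higher-background samples.

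With the log2 mean negative control count as a covariate, miR-467f stood at -0.29 ± 0.18 and miR-669a at -0.27 ± 0.09, the latter with an unadjusted edgeR p of 0.0168 and an adjusted p of 0.999. If sample 5 was counted as mutant, as its lane comment reads, miR-669a changed sign to 0.12, miR-467f to 0.04 and miR-466g to -0.12. In that fit miR-669f stood at 0.43 ± 0.15, with an unadjusted edgeR p of 0.0183 and an adjusted p of 0.9995. The unadjusted edgeR p of miR-669f was also under 0.05 with the lower-background lanes (0.0378) and without wild type 5 (0.0456). That of miR-669a was 0.0370 with lanes summed. Without wild type 3 and mutant 8 the values were -0.39 for miR-669a, 0.20 for miR-669f, -0.28 for miR-467f, -0.09 for miR-467a, -0.01 for the miR-466a-3p/miR-466b-3-3p probe and 0.08 for miR-466g. No member passed adjustment in any of these fits. Of all 189 probes, 7 had an unadjusted edgeR p under 0.05 with the covariate and 4 with sample 5 as mutant. There were 6 with the lower-background lanes, 5 without wild type 5 and 7 with lanes summed. Without a filter, 1 of 33 members and 5 of 566 probes were under 0.05.

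**Figure D5:**
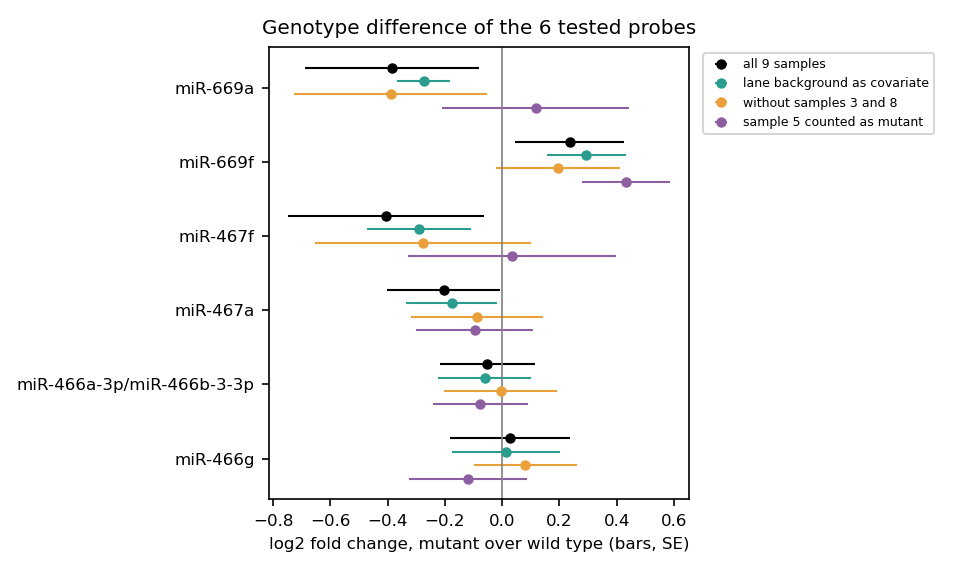
Log2 fold change, mutant over wild type (horizontal axis, bars are SE), of the 6 tested probes in 4 edgeR fits: all 9 samples, lane background as covariate, without samples 3 and 8, and sample 5 counted as mutant. miR-669f lies to the right of 0 in each fit, miR-467a to the left, and miR-669a and miR-467f cross 0 when sample 5 is counted as mutant.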

How the data were processed

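Raw counts per probe were deposited by the authors, and the values of all 626 probes equalled each sample's first lane (5634 of 5634). Normalization by the submitters is not given in the sources used here. A lane table, also deposited, gave these counts for the first lanes and further counts for the 3 repeat lanes. Its 12 lanes carried lane comments, per the file headers. Per the labels' protocols, each lung contributed 100 ng of RNA.

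A probe was above background if its count exceeded the negative control mean of its lane (8 probes) by over 2 SD. The 189 mouse probes above it in at least 4 samples entered a quasi-likelihood fit in edgeR 4.0.16 under R 4.3.3 (TMM, no covariate, library size their sum, Benjamini-Hochberg over all 189 at 0.05). A prior count of 2 entered log2 CPM. Fits were tested on simulated data. Alternatives included DESeq2 1.42.0, voom in limma 3.58.1, other scalings, filters and thresholds, a lane covariate and left-out samples. A threshold at the highest viral probe, and leaving out samples 3, 5 and 8, were added after seeing the data.

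Members and lists were chosen with earlier results of these data known. Members above background in at least 4 samples, and the next 5 by median, are named with values, as are other probes holding either motif. Sequences were to be printed for the first of these, and were printed for the 6 member names that matched RefSeq and for miR-1187.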

Additional observations from a re-analysis of the deposited data

Results flagged for a closer look

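The log2 CPM values of the 6 tested probes, the counts of the next 5, the number of members above background and their share of counts were searched within each genotype for a sample far from the others, by Dixon's ratio. Of 26 groups of values, 2 held such a sample, and chance alone marks about 1 group in 20. The miR-466a-3p/miR-466b-3-3p probe reached 9.69 in mutant 9, where the other 3 mutants read 9.13 to 9.16, and the wild types read 9.21 to 9.67. miR-466g reached 8.96 in mutant 8, which holds muscle markers, where the other mutants read 8.48 to 8.56, and it read 9.19 in wild type 3.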

How the results depend on the processing

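With a threshold of the mean plus 3 SD, 2 members passed in at least 4 samples, against 6 (29.2% against 33.4% of all mouse probes). In all 9 samples, 3 members passed at the mean plus 1 SD, 1 over the highest negative control and 1 with the lower-background lane of repeated samples, against 0 (26.3%, 22.1% and 22.1% of all mouse probes, against 19.8%). The member share of counts was 0.201% after subtracting the negative control mean and 0.242% for the 6 probes alone, as given above. No member was called in any of the 21 alternatives that tested members, and a filter in all 9 samples left none to test. Of 126 fold changes under these alternatives 12 changed sign, all of them uncalled, and the cause was not tested. That of the miR-466a-3p/miR-466b-3-3p probe became 0.011 with total count scaling, 0.063 with positive control scaling and 0.027 without a filter, and ran from -0.21 to 0.038 when each sample was left out, above 0 without wild type 4 (0.038) and without mutant 6 (0.0021). miR-466g became -0.12 with sample 5 as mutant and ran from -0.10 to 0.20 with each sample left out, below 0 without wild type 2 (-0.05), wild type 5 (-0.05) or mutant 8 (-0.10). With sample 5 as mutant miR-467f was 0.036 and miR-669a 0.12, and without samples 3, 5 and 8 miR-467f was 0.016. Left-out samples moved miR-669f to 0.15 (without wild type 1) or 0.38 (wild type 5), and miR-467a to -0.11 (wild type 3), -0.32 (wild type 1) or -0.32 (mutant 6). With background subtracted miR-669a was -0.63, miR-467f -0.66 and miR-669f 0.63. Positive control scaling moved the median of all 189 probes from -0.03 to 0.08, and relative to it the miR-466a-3p/miR-466b-3-3p probe kept its side. The same held with total count scaling, where the median was 0.025. Without a filter the median of all 566 probes was -0.003, and relative to it this probe changed side. No paired analysis was possible because the labels give no litter or other pairing of the samples. Counts near the negative controls in at least some lanes limit every member. The miR-466a-3p/miR-466b-3-3p probe had the highest median ratio to the lane threshold, 2.04, but lay under it in wild type 5 and mutant 6.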
